A study of Mus musculus with 6 samples.

Results

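The tripartite motif (Trim) family was taken as every listed gene whose symbol is Trim followed by a number and at most 1 letter. This gave 56 members among the 23197 genes listed. Of these, 42 had at least 60 counts summed over the 6 libraries and were tested, as were 13146 genes in all. The antiviral list was a choice among members known for acting in innate immunity or induced by interferon. It held 16 of the 56 members, 14 of them tested. Trim8, a regulator of NF-κB and STAT3 signalling, was not on it, so the list does not stand for every such member.

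The study sequenced polyA RNA of mouse primary vascular smooth muscle cells bought from a supplier. Of the 6 libraries, 3 are labelled negative control and 3 si-Arid3a, numbered #1 to #3, and all cells were incubated for 24 h after transfection. The labels do not say whether #1 to #3 are different siRNAs or repeats of 1 siRNA, and they name no separate cultures, so p-values measure a spread between libraries that may be technical. The labels also describe an angiotensin II treatment that models aneurysm, without saying whether these libraries received it, and they give no strain, sex or age.

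TRIM proteins carry, in order, a RING finger that acts as a ubiquitin ligase, 1 or 2 B-boxes and a coiled coil, followed by an end that differs between subfamilies. Many members with a PRY-SPRY end bind viral or signalling proteins, and several of their genes are induced by interferon. Members with a PHD finger and bromodomain act on chromatin instead. Arid3a is an AT-rich DNA-binding transcription factor.

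Total counts ranged from 17029735 to 22799935 per library, and Trim reads made up 0.188% to 0.216% of them. Arid3a, the targeted gene, stood at 19.5, 16.9 and 22.5 CPM (counts scaled to the TMM-adjusted library total) in the control libraries and at 16.6, 21.5 and 19.7 CPM in those labelled si-Arid3a. The groups overlapped, and the log2 fold change was -0.03 (SE 0.13, 95% interval -0.31 to 0.26, adjusted p = 0.943 by the edgeR quasi-likelihood test with Benjamini-Hochberg adjustment). No knockdown of Arid3a was thus seen at the mRNA level, although the interval allows a small change either way. The mRNA level therefore does not check the labels, and the groups below are named as the libraries labelled siArid3a and control. Of the smooth muscle markers, Acta2 was at 541 CPM in the control libraries and 554 CPM in those labelled siArid3a, while Myh11, a marker of contractile smooth muscle, was near 0. Control means of the others were 1413 CPM for Cald1, 71.9 for Smtn, 30.2 for Cnn1, 4.49 for Lmod1 and 3.64 for Synpo2. Tagln, Myocd and Des were low, at 1.46, 1.02 and 0.677 CPM. Only 32.1% of the exonic sequence of Tagln is clear of overlapping genes, so its count is uncertain. Of the fibroblast genes, Col1a1, Dcn and Pdgfra had control means of 1002, 519 and 76.2 CPM, and Lum and Dpt 1.80 and 0.103. The count of Dpt is uncertain too, with 22.8% of its exonic sequence clear.

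Trim transcripts were spread very unevenly over the family. Trim35, a ligase first described in blood cell lineage switching, took 19.4% of all Trim reads, and Trim28 (KAP1), the corepressor of KRAB zinc finger proteins, took 14.5%. Trim44, Trim8 and Trim59 followed with 9.48%, 6.47% and 5.10%, so these 5 genes held 54.9% of the family's reads. Per kilobase of merged exon, mean control levels ran from 86.7 CPM per kb for Trim35 and 69.0 for Trim28 down to 0.150 for Trim7, with a median of 4.50 over the 42 tested members. Only 43.7% of the exonic sequence of Trim7 is clear of overlapping genes. Per clear kilobase Trim7 was at 0.344, above Trim36 at 0.198. The antiviral members had a median of 1.39 CPM per kb and the 28 others 5.72. Trim30a, at 15.7 CPM per kb, was the highest antiviral member. The deposited length is the whole span of the gene, introns included, in all 23197 cases, so the counts, and a level per kilobase of exon, may hold intronic reads.

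**Figure D1:**
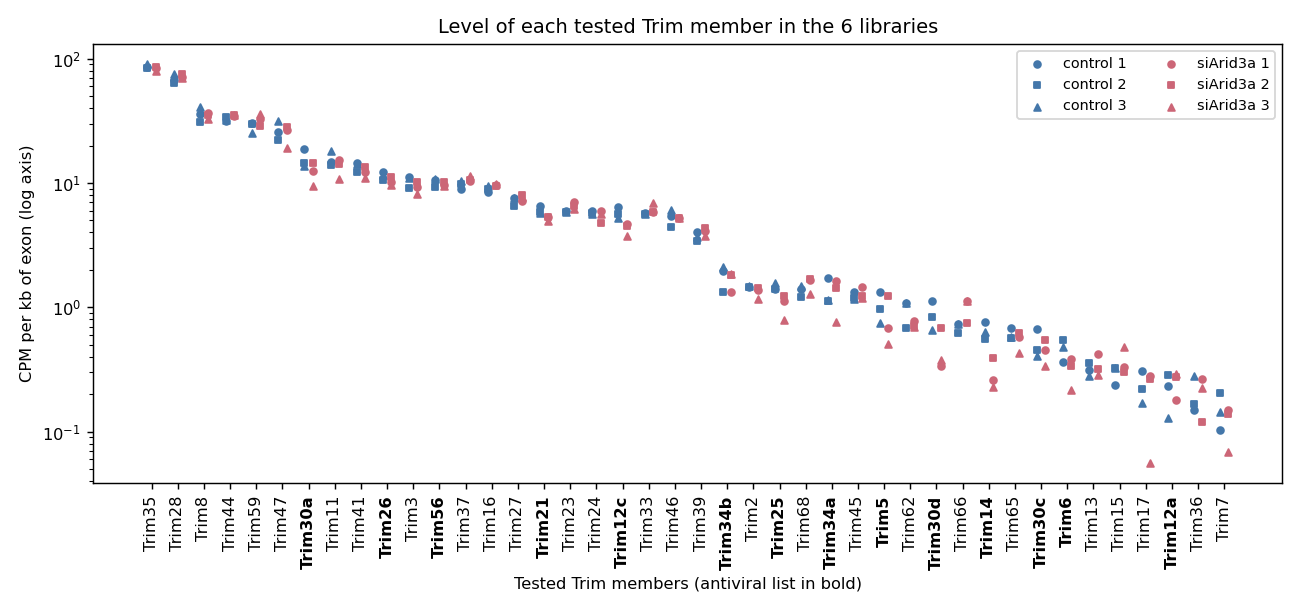
CPM per kilobase of merged exon (log axis) of each of the 42 tested Trim members, with 1 point per library, ordered by control mean; antiviral members are in bold. Levels fall from 86.7 for Trim35 to 0.150 for Trim7, and in most members the blue control points and the red siArid3a points overlap.

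No member passed the test between the libraries labelled siArid3a and control, and neither did any other gene. The edgeR quasi-likelihood test with Benjamini-Hochberg adjustment called 0 of 13146 genes (0%), with a smallest adjusted p of 0.0719. The limma-voom test also called 0 genes, while DESeq2 called 226 (1.72%), of which 0.898% of all genes were lower and 0.822% higher, among them 1 member, Trim14, as lower. At an unadjusted p under 0.05, 6 of the 42 members (14.3%) and 1976 of all genes (15.0%) passed by edgeR. Of these 6 members, 5 antiviral ones were lower (7.57% of all genes) and Trim66 was higher (7.46% of all genes). The family as a whole thus stood near the background, with a median log2 fold change of -0.08 against -0.01 for all genes tested.

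Within the family the members on the antiviral list, as chosen here, had the lower values. Of the 14 tested, 13 (92.9%) had a log2 fold change below 0, against 51.1% of all genes tested, and their median was -0.28. The other 28 members were divided, 13 below 0 and 15 above, with a median of 0.06, which was -0.048 without siArid3a library 1, -0.015 without control library 2 and -0.040 with no filter on low counts. Between groups, 10 of the 42 members (23.8%) did not overlap, 5 lower and 5 higher. Of all genes tested 10.3% were lower and 9.79% higher without overlap, so the family as a whole was near the background. Among the antiviral members 4 of 14 (28.6%) were lower without overlap, against 10.3% of all genes, and 0 were higher. Of the other members, 5 of 28 (17.9%) were higher without overlap, against 9.79% of all genes, and 1 was lower. These shares are descriptions, since the list was chosen with results of these data known and members share sequence and neighbourhood.

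**Figure D2:**
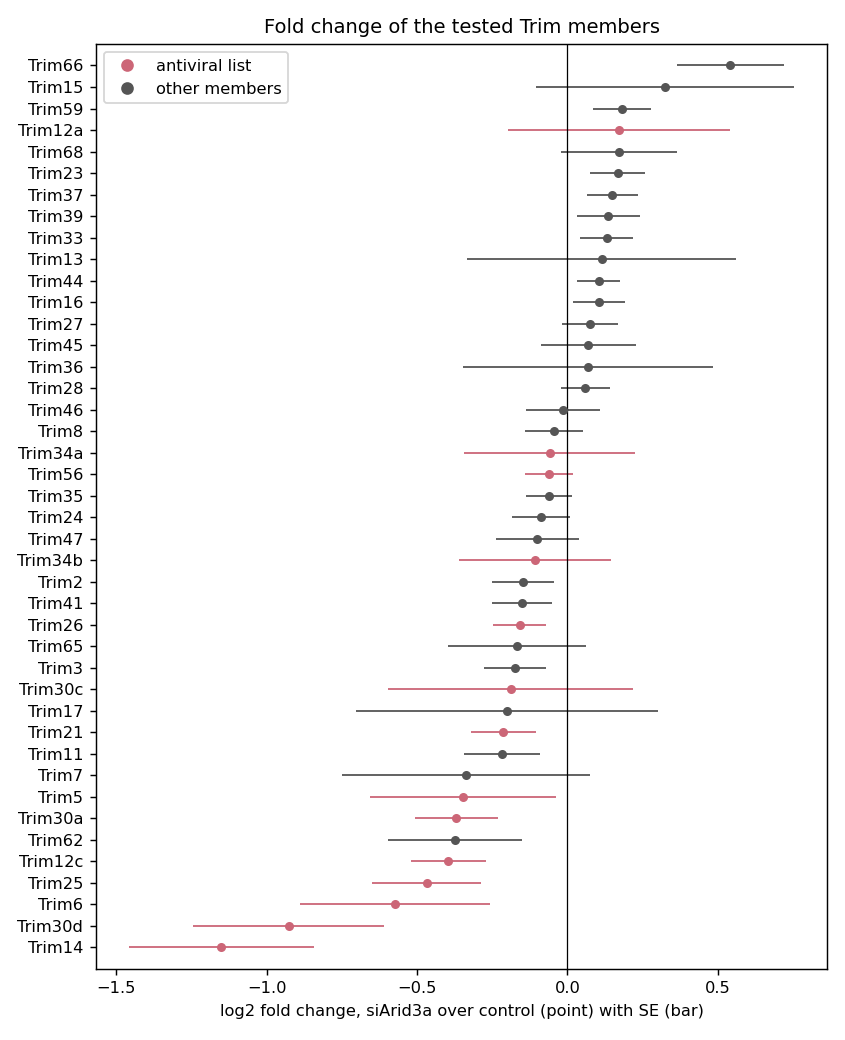
Log2 fold change (libraries labelled siArid3a over control, horizontal axis) of the 42 tested Trim members from edgeR, with bars of 1 SE; red points are the antiviral list. Of the 14 antiviral points 13 lie below 0, from -1.15 for Trim14 to -0.06, and Trim12a is at 0.17, while the other 28 run from -0.37 to 0.54.

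Trim14, an adaptor without a RING finger that works at MAVS on mitochondria in antiviral signalling, had the lowest log2 fold change of the family. It was at 3.28, 2.42 and 2.76 CPM in the control libraries (63, 53 and 48 counts) and at 1.13, 1.70 and 0.996 CPM in those labelled siArid3a (26, 29 and 19 counts). All 3 siArid3a values lay below all 3 control values, with means of 2.82 ± 0.436 and 1.28 ± 0.374 CPM (SD, n = 3). The log2 fold change came to -1.15 (SE 0.31, 95% interval -1.80 to -0.50), with an adjusted p of 0.130 by the edgeR quasi-likelihood test and 0.0460 by DESeq2. Over the 18 alternatives its adjusted p ran from 0.025 to 0.539, by edgeR, DESeq2 or limma-voom. Trim14 lies on mm10 at chr4:46493781-46536141, minus strand, with Nans among the genes that overlap it, and only 48.6% of its exonic sequence is clear of such genes, so its count is uncertain.

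Trim25, the ligase that ubiquitinates the RNA sensor RIG-I, was at 8.02, 8.02 and 9.03 CPM in the control libraries and at 6.41, 7.16 and 4.56 in those labelled siArid3a. Its groups did not overlap, with means of 8.36 ± 0.581 and 6.04 ± 1.34 CPM (SD, n = 3) and a log2 fold change of -0.47 (SE 0.18, adjusted p = 0.243, edgeR), or -0.30 without siArid3a library 3. Trim21, the cytosolic antibody receptor that sends antibody-coated viruses to the proteasome, was at 24.4, 21.7 and 21.1 CPM in the control libraries and at 19.8, 19.8 and 18.4 in the others. These groups did not overlap either, although the difference was small, at -0.21 on the log2 scale (SE 0.11, adjusted p = 0.364, edgeR).

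Trim56, which acts in the STING and TLR3 pathways, was at 97.7, 86.4 and 99.7 CPM in the control libraries and at 90.1, 94.1 and 87.7 in those labelled siArid3a. Trim26, a ligase linked to turnover of IRF3, was at 84.4, 72.8 and 79.7 CPM in the control libraries and at 69.9, 76.5 and 65.8 in the others. Both overlapped between groups, with log2 fold changes of -0.06 (SE 0.08, adjusted p = 0.769) and -0.16 (SE 0.09, adjusted p = 0.406) by edgeR. Together with Trim30a they were the antiviral members with the most reads.

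**Figure D3:**
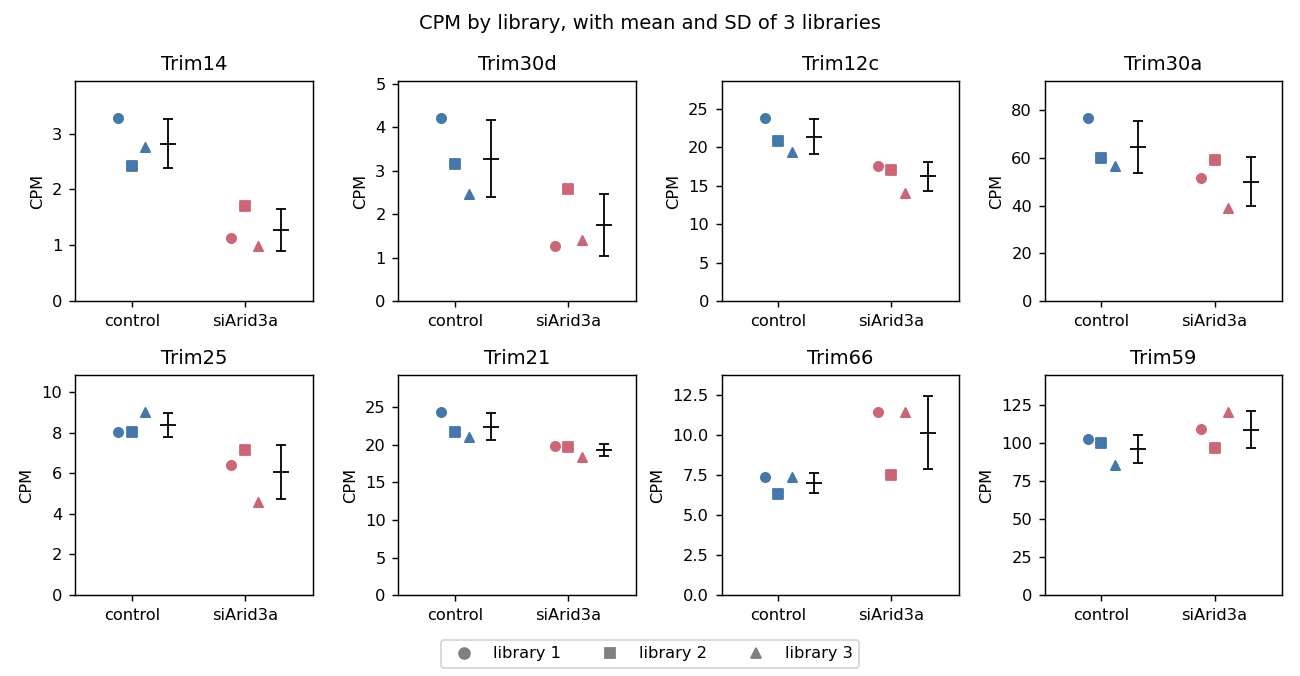
CPM of 8 Trim members in each library (points, with the shape giving the library number) beside the mean and SD of 3 libraries per group, on axes that start at 0. Trim14, Trim12c, Trim25 and Trim21 do not overlap between groups and are lower in the libraries labelled siArid3a, Trim66 does not overlap and is higher, and Trim30d, Trim30a and Trim59 overlap.

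The rodent cluster of Trim5, Trim6, Trim12, Trim30 and Trim34 genes on chromosome 7, which includes the mouse relatives of the primate restriction factor TRIM5, had 9 tested members, of which 8 were below 0, and their median was -0.35 on the log2 scale. Trim12c, linked in mouse to type I interferon induction through TRAF6, was at 23.9, 20.9 and 19.4 CPM in the control libraries and at 17.6, 17.0 and 14.1 in those labelled siArid3a. It was the only cluster member whose groups did not overlap, with a log2 fold change of -0.40 (SE 0.12, adjusted p = 0.171, edgeR). Trim30a, known in mouse macrophages as a brake on NF-κB signalling, was at 76.7, 59.9 and 56.7 CPM in the control libraries and at 51.5, 59.2 and 39.0 in the others, with a log2 fold change of -0.37 (SE 0.14, adjusted p = 0.229, edgeR). The second siArid3a library lay inside the control range, so the groups overlapped, and Trim30a was at -0.23 without control library 1 and at -0.22 without siArid3a library 3.

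Trim30d was at 4.22, 3.15 and 2.47 CPM in the control libraries and at 1.26, 2.58 and 1.41 in those labelled siArid3a. The second siArid3a library again overlapped the controls, and the log2 fold change was -0.93 (SE 0.32, adjusted p = 0.198, edgeR). Trim6, which makes free ubiquitin chains that activate IKKε, was at 1.77, 2.69 and 2.36 CPM in the control libraries and at 1.88, 1.64 and 1.05 in the others, with a log2 fold change of -0.57 (SE 0.32, adjusted p = 0.409, edgeR). Its groups overlapped through the first library of each, and without siArid3a library 3 it was at -0.37.

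Trim5 was at 4.90, 3.56 and 2.76 CPM in the control libraries and at 2.53, 4.52 and 1.89 in those labelled siArid3a, with overlapping groups and a log2 fold change of -0.35 (SE 0.31, adjusted p = 0.635, edgeR). That value was -0.11 without control library 1, -0.11 without siArid3a library 3 and -0.75 without siArid3a library 2. The remaining 4 members of the cluster overlapped widely. Trim12a was at 1.35, 1.64 and 0.748 CPM in the control libraries and at 1.05, 1.58 and 1.68 in the others, and was the only antiviral member above 0, at 0.17 (SE 0.37, adjusted p = 0.873, edgeR). Trim30c was at 1.15, 0.775 and 0.690 CPM against 0.785, 0.939 and 0.576, with a log2 fold change of -0.19 (SE 0.41, adjusted p = 0.873, edgeR).

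Trim34a was at 4.43, 2.92 and 2.99 CPM in the control libraries and at 4.19, 3.70 and 1.99 in those labelled siArid3a, with a log2 fold change of -0.06 (SE 0.28, adjusted p = 0.943, edgeR) and 72.6% of its exonic sequence clear of overlapping genes. Trim34b was at 3.60, 2.46 and 3.91 CPM against 2.44, 3.34 and 3.46, with a log2 fold change of -0.11 (SE 0.25, adjusted p = 0.885, edgeR). Members of this cluster resemble each other closely, so the counting may have split or dropped reads that fit several of them, and the values of single members are uncertain.

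The promoters of this group often hold the core of the interferon-stimulated response element, GAAANNGAAA, to which IRF and STAT factors bind. RefSeq promoter windows on GRCm38.p6, from 250 bases before to 50 after each start, were searched on both strands. The core was in 3.44% of all 32851 windows and in 3.99% of 27025 genes. Of the 42 members matched to a window, 8 of 15 antiviral members held it (Trim5, Trim12a, Trim12c, Trim21, Trim26, Trim30a, Trim30d and Trim34a), and of the 27 others only Trim2 did. Trim14 was not matched. Induction by interferon was among the grounds for the antiviral list, so a higher share in it was partly set by that choice. The stretches around the match follow for 6 of these 8 antiviral members, chosen to show the shared copies and the paired matches, written along the gene's strand with the match in capitals. Those of Trim21 and Trim26 hold overlapping matches, and TTTC marks a match on the opposite strand.
Trim21 (chr7:102565447-102565476, minus strand): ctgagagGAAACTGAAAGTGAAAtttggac
Trim5 (chr7:104288121-104288180, minus strand): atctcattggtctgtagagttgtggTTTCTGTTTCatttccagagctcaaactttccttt
Trim12c (chr7:104353344-104353403, minus strand): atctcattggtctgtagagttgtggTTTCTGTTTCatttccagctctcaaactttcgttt
Trim30a (chr7:104465195-104465254, minus strand): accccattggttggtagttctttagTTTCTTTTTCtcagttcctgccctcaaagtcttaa
Trim30d (chr7:104507856-104507915, minus strand): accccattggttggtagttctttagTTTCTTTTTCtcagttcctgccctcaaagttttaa
Trim26 (chr17:36836961-36837026, plus strand): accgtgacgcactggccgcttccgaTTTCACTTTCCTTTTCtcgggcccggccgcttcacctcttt

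Over the same 60 bases Trim12a and Trim5 did not differ, Trim12c differed from Trim5 at 3 bases, and the Trim30a stretch printed here from Trim30d at 1, so these matches are not separate cases. A second Trim30a window, at another start, also holds a match and differs from the printed one at 14 bases. The 8 tested antiviral members with the core had a median log2 fold change of -0.28 (7 below 0), and the 5 matched members without it -0.19 (5 below 0). Among all tested genes, those with the core had a median of -0.03 (56.8% of 375 below 0), against -0.0040 (50.7% of 9450 below 0) without it. The GAS core TTCNNNGAA, bound by STAT dimers, was in 2 antiviral and 4 other members and in 9.55% of all genes. ATTAAA, a short AT-rich core of the kind Arid3a binds, was in 2 of 15 antiviral and 7 of 27 other members, against 15.8% of all genes.

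**Figure D4:**
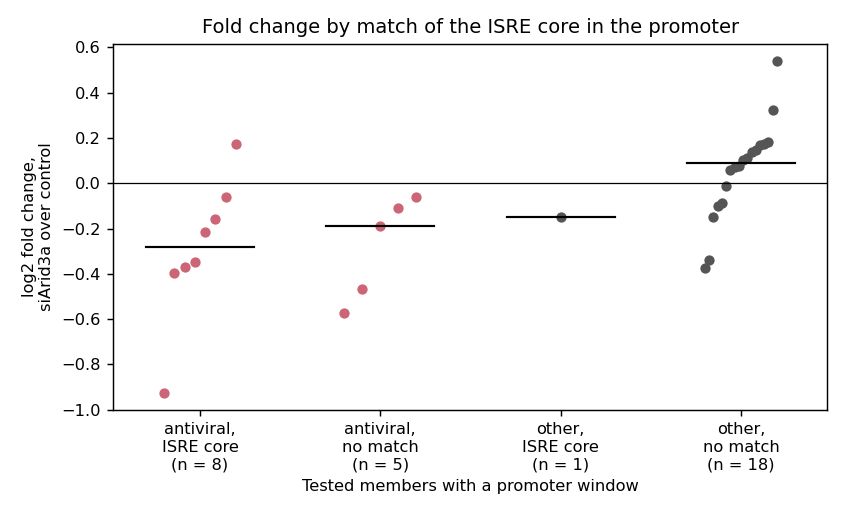
Log2 fold change (libraries labelled siArid3a over control) of the tested Trim members that have a promoter window, split by list and by a match of GAAANNGAAA; each point is 1 member and each line a median. The antiviral medians are -0.28 with a match and -0.19 without, and the 18 other members without a match have a median of 0.09.

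The lower antiviral values came unevenly from the 3 libraries labelled siArid3a. The median deviation of the 14 antiviral members from the control mean, as log2 of CPM plus 0.5, was 0.14, -0.07 and -0.11 in the control libraries and -0.24, -0.08 and -0.61 in those labelled siArid3a. The third was the lowest, and the second lay within the control range. In siArid3a libraries 1, 2 and 3, 9, 5 and 11 of the 14 antiviral members lay below every control library, as did 2, 3 and 10 of the 28 others. Over all genes tested these shares were 25.3%, 24.1% and 32.8%. Without control library 1, which was the highest, 11 of the 14 were below 0 and the median was -0.13.

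Of 7 listed macrophage markers 4 had enough counts (Csf1r, Cd68, Lyz2 and Cd14), 0 passed the edgeR test and 4 were below 0, with a median of -0.44 on the log2 scale. Csf1r and Cd14 were lower without overlap between groups, against 10.3% of all genes, while Cd68 (-0.08) and Lyz2 (-0.43) overlapped. DESeq2 called Cd14 as lower (adjusted p = 0.0286, DESeq2), against 0.898% of all genes. The summed level of the 7 ran from 60.5 to 73.6 CPM in the control libraries and from 41.8 to 57.5 in those labelled siArid3a, without overlap, and most of that sum was Cd14. The defining markers Ptprc, Adgre1 and Fcgr1 were near 0, with 20, 5 and 13 counts over all 6 libraries. Mean Ptprc and Adgre1 were higher in the libraries labelled siArid3a, at 0.249 and 0.058 CPM against 0.078 and 0.015. Mean Fcgr1 was lower there, at 0.064 CPM against 0.141. The Adgre1 reads of that group came from siArid3a library 1 alone, and directions at such counts are uncertain. Cd14 was at 54.5 ± 4.60 CPM in the control libraries and 39.8 ± 6.53 in those labelled siArid3a (SD, n = 3). Of the other marker lists, epithelial genes had a median of -0.43 (2 tested), endothelial genes -0.22 (3 tested, from -0.65 for Tek to 1.74 for Kdr), fibroblast genes -0.18 (4 tested, from -0.48 for Dcn to 0.08 for Col1a1) and smooth muscle genes -0.0048 (9 tested). DESeq2 also called Dcn and the epithelial gene Krt19 as lower (adjusted p = 0.0136 and 0.0337, DESeq2), against 0.898% of all genes. Both were lower without overlap, as was Tek, against 10.3% of all genes. Kdr was higher without overlap, against 9.79% of all genes. Lower values were thus not particular to the macrophage list. The part of the marker genes in the antiviral result was not tested. In a bulk sample fewer cells of a type and less RNA per cell cannot be told apart.

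**Figure D5:**
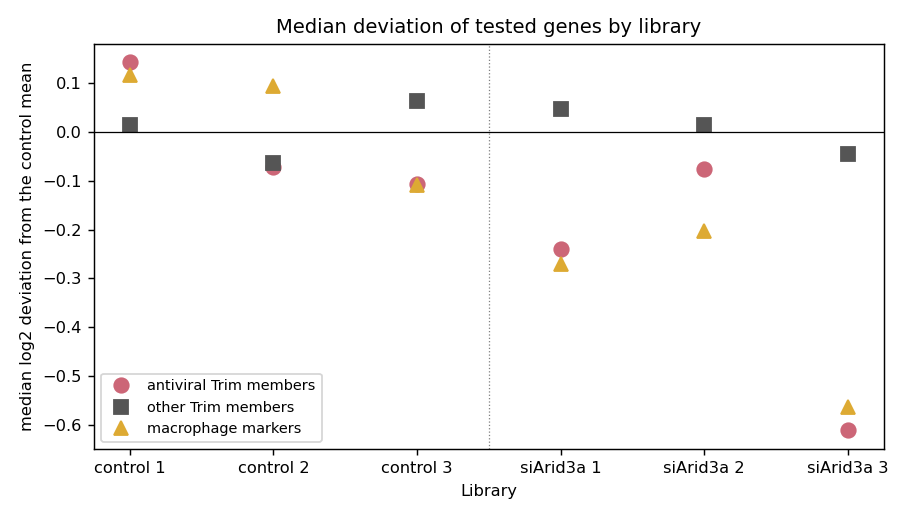
Median log2 deviation from the control mean (vertical axis) in each of the 6 libraries for the 14 antiviral members, the 28 other members and 4 macrophage markers. The antiviral and macrophage medians are lowest in the third library labelled siArid3a, at -0.61 and -0.56, while the other members stay between -0.06 and 0.06 throughout.

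Of the 4 chromatin members 3 had a log2 fold change above 0. Trim66 (TIF1δ), a partner of heterochromatin protein HP1 known from testis, was at 7.40, 6.29 and 7.36 CPM in the control libraries and at 11.5, 7.51 and 11.5 in those labelled siArid3a. The groups did not overlap, with means of 7.02 ± 0.629 and 10.2 ± 2.29 CPM (SD, n = 3) and the highest log2 fold change among members, 0.54 (SE 0.18, adjusted p = 0.183, edgeR). Trim33 (TIF1γ), a regulator of SMAD signalling, was at 56.1, 55.7 and 54.8 CPM in the control libraries and at 57.6, 57.5 and 67.1 in the others. Its groups did not overlap, with a log2 fold change of 0.13 (SE 0.09, adjusted p = 0.498, edgeR), and the third siArid3a library stood above the rest.

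Trim28 was at 280.3, 266 and 315 CPM in the control libraries and at 294, 311 and 292 in those labelled siArid3a, so the groups overlapped, and the log2 fold change was 0.06 (SE 0.08, adjusted p = 0.775, edgeR). Trim24 (TIF1α), a nuclear receptor coregulator, had a log2 fold change of -0.09. Of 15 partners of KAP1 and the TIF1 proteins, 0 passed the test and 4 were below 0, with a median of 0.07. Setdb1, the histone methyltransferase that KAP1 recruits, was at 62.1 ± 3.28 CPM in the control libraries and 61.7 ± 2.39 in the others (SD, n = 3).

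Trim44, which lacks a RING finger and carries a zinc finger of the kind found in ubiquitin proteases, was at 177, 192 and 183 CPM in the control libraries and at 195, 199 and 200.0 in those labelled siArid3a. The groups did not overlap, but the log2 fold change was only 0.10 (SE 0.07, adjusted p = 0.512, edgeR). Trim16, which acts in autophagy of damaged lysosomes and also lacks a RING finger, was at 38.9, 41.2 and 43.0 CPM in the control libraries and at 44.0, 43.6 and 44.6 in the others. It too did not overlap between groups, with a log2 fold change of 0.10 (SE 0.09, adjusted p = 0.601, edgeR).

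Trim23, which ends in an ARF GTPase domain, was at 34.0, 33.3 and 33.8 CPM in the control libraries and at 40.6, 37.4 and 35.5 in those labelled siArid3a, without overlap, with a log2 fold change of 0.17 (SE 0.09, adjusted p = 0.402, edgeR). Trim59, a membrane-anchored member linked to proliferation, was at 103, 99.8 and 85.2 CPM in the control libraries and at 109, 96.6 and 121 in the others. Its groups overlapped, with a log2 fold change of 0.18 (SE 0.10, adjusted p = 0.387, edgeR). Trim2, a ligase of the NHL class that acts on neurofilament light chain in neurons, was at 28.7, 28.6 and 29.2 CPM in the control libraries and at 27.3, 28.0 and 22.8 in those labelled siArid3a. It was the only tested member outside the antiviral list that was lower without overlap, at -0.15 (SE 0.10, adjusted p = 0.529, edgeR), and at -0.062 without siArid3a library 3.

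Members with high levels showed small differences. Trim35 was at 392, 389.5 and 419 CPM in the control libraries and at 386, 399 and 365 in those labelled siArid3a, with a log2 fold change of -0.06 (SE 0.08, adjusted p = 0.750, edgeR). Trim8, a regulator of NF-κB and STAT3 signalling, was at 133, 114 and 152 CPM in the control libraries and at 135, 131 and 121 in the others, with a log2 fold change of -0.04 (SE 0.10, adjusted p = 0.878, edgeR). Trim47 was at 70.2, 61.1 and 86.3 CPM against 73.2, 77.1 and 52.5, with a log2 fold change of -0.10 (SE 0.14, adjusted p = 0.779, edgeR). The groups of all 3 overlapped.

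The other 17 tested members had log2 fold changes from -0.37 to 0.32, with 9 below 0 and 8 above and adjusted p from 0.422 to 0.971 by edgeR. Among these were Trim3 of the NHL class at -0.18, the microtubule-linked Trim46 at -0.01 and Trim36 at 0.07, and the membrane-anchored Trim13 at 0.11. Reads of Trim13, Trim17, Trim65, Trim7 and Trim27 are uncertain, since only 14.1%, 13.4%, 19.5%, 43.7% and 59.7% of their exonic sequence is clear of overlapping genes. The 14 members below 60 counts had 1 to 26 counts over the 6 libraries and were not tested. They were Trim29 and Trim31 (1 each), Trim9 (2), Trim55 (3), Trim10 and Trim50 (5 each), Trim30b and Trim38 (8 each), Trim40 (10), Trim71 (12), Trim75 (14), Trim43b (15), Trim72 (18) and Trim43a (26). The GENCODE M21 annotation holds 68 such symbols, and the 12 without a value, Trim32 and Trim63 among them, were not analysed here.

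Partners of the antiviral members were divided as well. Of 17 genes around RIG-I, MAVS and STING, 0 passed the edgeR test, 12 were below 0 and the median log2 fold change was -0.12; 4 were lower and 2 higher without overlap, against 10.3% and 9.79% of all genes. Irf7, the interferon-induced regulator of interferon genes, was at 183, 139 and 142 CPM in the control libraries and at 107, 119 and 81.6 in those labelled siArid3a, without overlap, with a log2 fold change of -0.59 (SE 0.13, adjusted p = 0.101, edgeR). DESeq2 called Irf7 and Ikbke as lower, against 0.898% of all genes. Ddx58, which encodes RIG-I and is the target of Trim25, was at 175 ± 6.25 CPM in the control libraries and 157 ± 9.41 in the others (SD, n = 3), with a log2 fold change of -0.16 (SE 0.08, adjusted p = 0.343, edgeR). Cgas, the DNA sensor that Trim14 protects from degradation, was higher without overlap, at 15.0, 16.6 and 16.2 CPM against 19.5, 20.5 and 20.7, with a log2 fold change of 0.34 (SE 0.11, adjusted p = 0.174, edgeR).

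Of 10 tested ubiquitin-conjugating enzymes that work with TRIM ligases, 0 passed the edgeR test and 8 were above 0, with a median of 0.20. At an unadjusted p under 0.05 by edgeR, 5 were higher and 1 lower, against 7.46% and 7.57% of all genes. Ube2n (0.21) and Ube2e3 (0.19) were higher without overlap, against 9.79% of all genes. Ube2l6, the conjugating enzyme for the interferon-induced modifier ISG15, was at 113, 101 and 82.6 CPM in the control libraries and at 72.4, 73.7 and 55.0 in those labelled siArid3a. Ube2l6 was thus lower without overlap, against 10.3% of all genes, with a log2 fold change of -0.56 (SE 0.12, adjusted p = 0.101, edgeR). DESeq2 called the gene as lower, against 0.898% of all genes. The 3 tested TRIM genes with another symbol overlapped between groups. Pml, the organizer of nuclear bodies, was at 110 ± 9.84 CPM in the control libraries and 97.6 ± 11.1 in the others (SD, n = 3), with a log2 fold change of -0.17 (SE 0.10, adjusted p = 0.425, edgeR), and Mid1 and Mid2, which bind microtubules, were at -0.05 and 0.09.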

How the data were processed

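The deposited values of the 6 libraries are raw read counts, 1 whole number per gene. The submitters' processing notes name STAR 2.7.3a, featureCounts and the mm10 build; which annotation and strand setting went with them is not given in the sources used here. Genes with at least 60 counts summed over the libraries entered edgeR 4.0.16 (R 4.3.3) and its quasi-likelihood test, with TMM scaling, a robust fit and group as the term, with p adjusted by Benjamini-Hochberg over all 13146 genes and called at an adjusted p under 0.05. Each SE was computed as the size of the log2 fold change divided by the root of its F statistic. Alternatives were DESeq2 1.42.0, limma-voom 3.58.1, other filters and scalings, and leaving out each library. Every pair within a group differed by more than sampling noise (chi-square per degree of freedom 4.58 to 15). Exon lengths and overlaps come from GENCODE M21 (GRCm38, of which mm10 is another name). The members and lists were chosen with earlier results of these data known. Values per library were given for the antiviral members, the 8 members with the smallest p, the 6 with the highest levels and those without overlap. The procedure was also run on simulated counts with known changes, drawn separately for each gene. Deviations that many genes of a library share were not simulated.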

Additional observations from a re-analysis of the deposited data

How the results depend on the processing

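The count of genes called depended on the processing. It was 0 by edgeR as reported, 439 by edgeR with no filter on low counts, 226 by DESeq2 and 458 by edgeR after a trend on GC content and length was removed, and leaving out single libraries gave 0 to 135, the highest being 135 without control library 2, 103 without control library 3 and 82 without siArid3a library 2. With no filter, 2 of 56 members were called (Trim14 and Trim30a), beside 439 of 23197 genes. DESeq2 called 1 of 42 members (Trim14), beside 1.72% of all genes. In each fit that left out a library 0 members were called. After the trend was removed 1 of 42 members was called (Trim12c), beside 458 of 13146 genes. Such counts do not set the members apart from all genes. The removal of this trend was an alternative added after seeing the data. The cause of these differences was not tested. Antiviral members below 0 numbered 11 to 13 of 14 over the fits that left out a library, and the others below 0 numbered 10 to 16 of 28, and 22 of 40 with no filter. With a replicate block 0 genes and 0 members were called, and 13 antiviral members stayed below 0. Same-numbered libraries did not deviate together (correlations 0.03, -0.18 and -0.08). These correlations cannot show whether such libraries shared a culture or batch, and the labels name no pairing.

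Of 471 values of 25 named members under the alternatives, 455 kept direction and side of the threshold, 4 passed it and 12 reversed. Leaving out single libraries moved the log2 fold change of Arid3a from -0.13 to 0.084, of Trim12a from -0.072 to 0.43, of Trim30c from -0.34 to 0.054, of Trim34a from -0.29 to 0.20, of Trim34b from -0.29 to 0.042, of Trim47 from -0.21 to 0.053 and of Trim8 from -0.14 to 0.067. After the trend was removed Arid3a was at 0.053, Trim8 at 0.051 and Trim35 at 0.0010. Trim14 ran from -1.39 to -1.01 without single libraries, Trim28 from 0.0079 to 0.14, Trim56 from -0.12 to -0.018, Trim35 from -0.091 to -0.024, Trim59 from 0.10 to 0.26, Trim33 from 0.053 to 0.17 and Trim16 from 0.067 to 0.14. Depth limits the low members most: Trim14 had 19 to 63 counts per library, and small differences at such counts were not detectable.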
